A study of Mus with 6 samples.

Results

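Immediate early genes are transcribed within minutes of a stimulus, without new protein synthesis, and their short-lived transcripts fade soon after. Growth factor, cytokine and stress signals reach their promoters through MAP kinases and the factors SRF, ELK and CREB. Fos and Jun proteins pair into the transcription factor AP-1, Egr1 encodes a zinc finger transcription factor, and other members of the group shut the response down again. In liver the group is known for its quick response to regeneration, endotoxin, and to surgery or handling of the tissue. The 10 genes described here were fixed by name as early response transcription factors (Fos, Fosb, Jun, Junb, Jund, Egr1) and early response or feedback genes (Ier2, Ier3, Zfp36, Dusp1). All 10 were found among the 48882 genes of the table.

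RNA was sequenced from 3 liver samples of wild type mice and 3 of Fabp4 knockout (FABP4-/-) mice, described as littermates. Both groups had been fed a Lieber-DeCarli liquid diet with ethanol for 8 weeks and then given 1 ethanol binge, a regimen used to model alcoholic steatohepatitis (ASH), so that livers without ethanol were not analysed here. Fabp4 encodes a fatty acid carrier of adipocytes, macrophages and endothelium, and the labels name no tissue-specific deletion. Strain, sex, age, the time between binge and tissue collection and the number of mice behind a library were not given in the sources used here, and the p-values measure only the spread between these libraries.

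Levels are in TPM, which counts a gene's transcripts relative to all others after division by gene length, and 14155 genes with a mean of at least 0.5 TPM were tested. TPM carries no read numbers, so the depth is unknown. Fabp4 stood at 14.7, 8.15 and 19.96 TPM in replicates 1, 2 and 3 of the wild type and had no value in any knockout library. Wild type replicate 2 lay apart from the other libraries on the first principal component (-38.1, against -2.50 to 22.3). Knockout replicate 1 stood apart in the same way on the next component (-30.8, with the others at -5.92 to 21.8). The log2 differences of the tested members are given with and without wild type replicate 2. Those without knockout replicate 1 are given at the end for the members that it moved most. The hepatocyte markers fixed for the tissue, among them Ttr, Apoa1 and Cps1, summed to between 32906 and 44144 TPM, and no library lacked them.

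Of the 10 immediate early genes, the transcription factor genes Junb and Egr1 and the feedback gene Zfp36 had the lowest knockout levels relative to wild type, with knockout means of 0.444, 0.353 and 0.524 times the wild type means. The ratio of the other 7 lay between 0.643 and 1.47, and none of the 10 passed the test over all genes. Past the abundance filter were 9 members, all but Fosb. Of those 9, 5 were lower and 4 higher in the knockout, with a median log2 difference of -0.09 against 0.04 over all genes tested. With limma and Benjamini-Hochberg adjustment over all genes, 0 of the 9 were under an adjusted p of 0.05, as against 1 gene (0.00706%) of all those tested, which was Fabp4. At an unadjusted p under 0.05 there were 3 of 9 members, all lower, where 8.03% of all genes tested passed in either direction and 2.91% passed lower. The groups did not overlap for 2 of 9 members, Junb and Zfp36, both lower, where 13.3% of all genes did not overlap in either direction and 4.38% were lower.

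**Figure D1:**
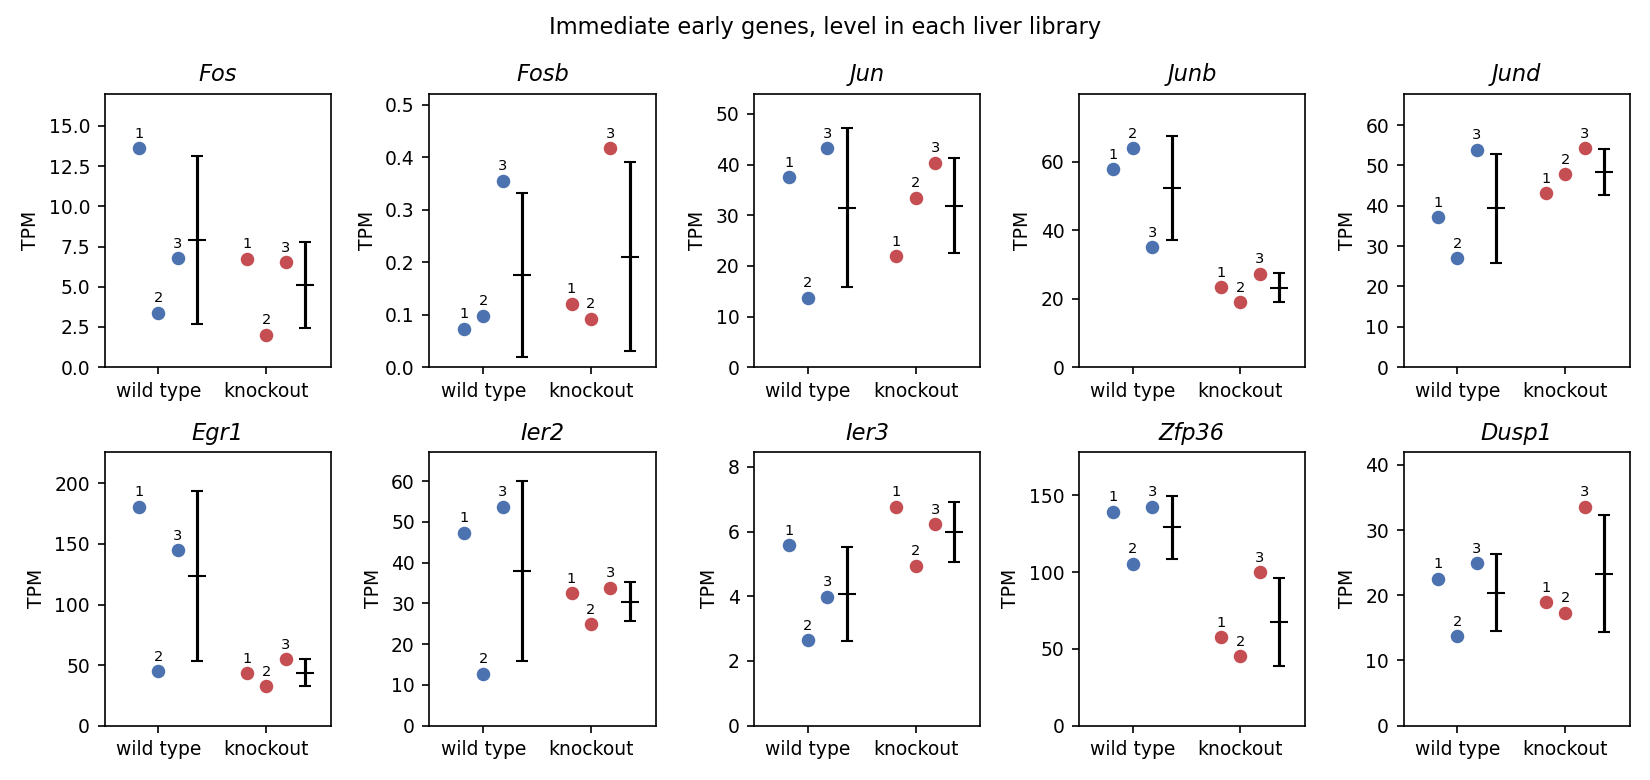
Level of each immediate early gene (TPM, linear axis from 0, one scale per gene) in the wild type (blue) and knockout (red) liver libraries, each point 1 library with its replicate number; the black bar is the mean and SD of 3 libraries. The knockout points of Junb (18.9 to 27.3 TPM) and Zfp36 (45.2 to 100.1 TPM) lie below every wild type point, and those of the other 8 genes overlap.

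Jun proteins can pair with each other or with Fos proteins, and the family has 3 genes. Junb (mm10 chromosome 8, 84976909 to 84978748, minus strand) encodes a Jun protein that responds to cytokines and often restrains Jun. It was measured at 57.8, 63.9 and 34.97 TPM in replicates 1, 2 and 3 of the wild type and at 23.3, 18.9 and 27.3 TPM in those of the knockout. All knockout libraries were below the lowest wild type library. The means were 52.2 ± 15.2 TPM (SD, n = 3) and 23.2 ± 4.19 TPM (SD, n = 3). The log2 difference was -1.11 (SE 0.24), with an unadjusted p of 0.00200 and an adjusted p of 0.522 from limma, so Junb did not pass over all genes. An exact permutation test (two-sided) returned p = 0.1, the smallest that 3 against 3 libraries allow. By unadjusted p, Junb ranked at 44 of the 14155 genes tested. Without wild type replicate 2, its log2 difference was -0.94.

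Jun (chromosome 4, 95049036 to 95052222, minus strand), the founding Jun gene and an effector of JNK signalling, stood at 37.5, 13.7 and 43.2 TPM in the wild type and 22.0, 33.4 and 40.4 TPM in the knockout. Its group means were nearly equal and wild type replicate 2 was the lowest library. The log2 difference was 0.13 (SE 0.42), with a 95% interval from -0.84 to 1.10 that admits a change in either direction. The difference was -0.37 without wild type replicate 2 and -0.06 when knockout replicate 3 was left out, so that its sign rested on single libraries.

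Jund (chromosome 8, 70697739 to 70700616, plus strand) encodes a Jun protein that resting cells also express. Its level was 37.1, 27.0 and 53.9 TPM in the wild type and 43.1, 47.8 and 54.3 TPM in the knockout. The ranges overlapped, with a log2 difference of 0.34 (SE 0.24; 95% interval -0.21 to 0.89). It was 0.10 without wild type replicate 2 and 0.59 without wild type replicate 3, where the knockout libraries were all higher (limma unadjusted p 0.0166, adjusted p 0.420). An antisense gene of the table overlaps Jund over 919 bases and was listed at 37.8, 24.3 and 50.1 TPM in the wild type and 46.2, 49.8 and 52.7 TPM in the knockout. The antisense values followed those of Jund closely from library to library. Whether reads were counted by strand is not given in the sources used here, so reads of the pair cannot be told apart and the level of Jund is uncertain.

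Summed over the 3 genes, Jun family RNA came to 132, 105 and 132 TPM in the wild type and to 88.3, 100.2 and 122 TPM in the knockout. Junb made up 43.6%, 61.1% and 26.5% of that sum in wild type and 26.4%, 18.9% and 22.4% in the knockout. The 2 groups were separated only narrowly, between wild type replicate 3 and knockout replicate 1. Jund made up 28.0%, 25.8% and 40.8% in wild type and 48.8%, 47.7% and 44.5% in the knockout, again without overlap. The share of Jun overlapped, at 13.1% to 32.7% in wild type and 24.9% to 33.4% in the knockout. These shares were computed after the levels had been seen and are tied to each other by their sum. An exact permutation test (two-sided) returned p = 0.1 for Junb and for Jund and 0.5 for Jun. Every sum and share rests on the uncertain level of Jund. With Jund left out, Junb made up 60.6%, 82.3% and 44.7% of Jun and Junb together in wild type and 51.5%, 36.2% and 40.4% in the knockout, and the groups overlapped (p = 0.2, exact permutation test).

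**Figure D2:**
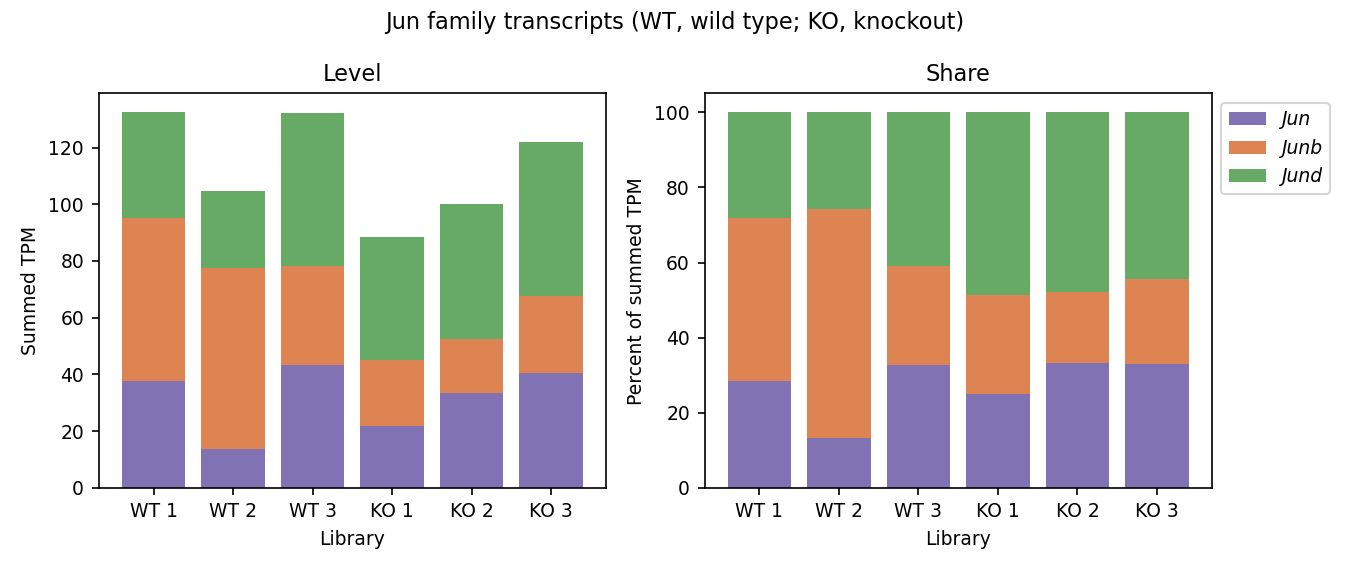
Stacked bars of Jun, Junb and Jund in each liver library (WT, wild type; KO, knockout; number, replicate), as summed TPM on the left and as percent of that sum on the right. The Junb band spans 26.5% to 61.1% in the wild type libraries and 18.9% to 26.4% in the knockout libraries, shares that rest on the uncertain level of Jund.

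The Fos family provides the partners of Jun. Fos (chromosome 12, 85473901 to 85477269, plus strand), the prototype immediate early gene, stood at 13.6, 3.38 and 6.77 TPM in the wild type and 6.73, 2.01 and 6.53 TPM in the knockout. The lowest library of each group was replicate 2, and the highest and lowest of the 6 libraries differed 6.77-fold, the widest range among the 10 members. The log2 difference was -0.50 (SE 0.50), about the size of its error, with a 95% interval from -1.66 to 0.66. It was -0.93 without wild type replicate 2, where the groups no longer overlapped, and close to 0 when wild type replicate 1 (-0.06) or knockout replicate 2 (-0.05) was left out. Fosb (chromosome 7, 19302696 to 19310226, minus strand), its closest relative, was nearly silent, at 0.0733, 0.0984 and 0.356 TPM in the wild type and 0.121, 0.0922 and 0.417 TPM in the knockout. It fell under the abundance filter and was not tested. Among the Fos-related genes, Fos held 46.7% to 78.6% of summed Fos, Fosb, Fosl1 and Fosl2 TPM in the wild type and 32.9% to 67.6% in the knockout. Fosl2, another Fos relative, held most of the rest.

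Egr1 (chromosome 18, 34861207 to 34864956, plus strand) encodes a zinc finger factor induced through SRF and ELK. It was measured at 181, 44.8 and 145 TPM in the wild type and 43.3, 32.6 and 55.0 TPM in the knockout. Wild type replicates 1 and 3 were higher than every other library, while wild type replicate 2 lay within the knockout range. The means were 124 ± 70.5 TPM (SD, n = 3) and 43.7 ± 11.2 TPM (SD, n = 3). The log2 difference was -1.29 (SE 0.48), with an unadjusted p of 0.0297 and an adjusted p of 0.579 from limma. An exact permutation test (two-sided) returned p = 0.2. Leaving out wild type replicate 2, the lowest wild type library, moved the difference to -1.90 (limma unadjusted p 0.000101, adjusted p 0.476). Leaving out wild type replicate 1 or 3 or knockout replicate 1 or 2 brought the unadjusted p from limma to between 0.0627 and 0.0995, with differences from -1.30 to -0.90.

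Of the feedback genes, Zfp36 (chromosome 7, 28376784 to 28379228, minus strand) encodes tristetraprolin, which binds AU-rich elements of cytokine transcripts and speeds their decay. It was measured at 139, 105 and 143 TPM in the wild type and 57.7, 45.2 and 100.1 TPM in the knockout. The groups did not overlap, although knockout replicate 3 came close to wild type replicate 2. The means were 129 ± 20.6 TPM (SD, n = 3) and 67.7 ± 28.8 TPM (SD, n = 3). The log2 difference was -0.99 (SE 0.28), with an unadjusted p of 0.00848 and an adjusted p of 0.529 from limma, and p = 0.1 in the exact two-sided permutation test. Without wild type replicate 2, the log2 difference of Zfp36 was -1.13. An antisense gene that overlaps Zfp36 over 249 bases did not exceed 4.13 TPM.

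Dusp1 (chromosome 17, 26505591 to 26508472, minus strand) encodes a phosphatase that switches off p38 and JNK and is also a glucocorticoid target. It stood at 22.5, 13.7 and 24.9 TPM in the wild type and 18.9, 17.3 and 33.6 TPM in the knockout. The groups overlapped, with a log2 difference of 0.17 (SE 0.30; 95% interval -0.52 to 0.86). The sign turned when wild type replicate 2 (-0.08) or knockout replicate 3 (-0.12) was left out.

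Ier2 (chromosome 8, 84661331 to 84662852, minus strand), a small nuclear protein gene, stood at 47.3, 12.7 and 53.7 TPM in the wild type and 32.5, 24.9 and 33.8 TPM in the knockout. Wild type held both the highest and the lowest library, and the log2 difference was -0.09 (SE 0.48; 95% interval -1.21 to 1.03). Without wild type replicate 2, whose value was the lowest, it was -0.72 (limma unadjusted p 0.00432, adjusted p 0.834). Ier3 (chromosome 17, 35821713 to 35822911, plus strand), a survival gene induced by NF-kB, stood at 5.57, 2.65 and 3.99 TPM in the wild type and 6.77, 4.94 and 6.24 TPM in the knockout. The log2 difference was 0.49 (SE 0.23; 95% interval -0.04 to 1.02), the highest of the 9 tested members, and the groups overlapped at 1 library of each. It was 0.28 without wild type replicate 2. The knockout libraries of Ier3 were all higher without wild type replicate 1 (0.70, limma unadjusted p 0.0116, adjusted p 0.513) or without knockout replicate 2 (0.61, limma unadjusted p 0.0526, adjusted p 0.752).

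**Figure D3:**
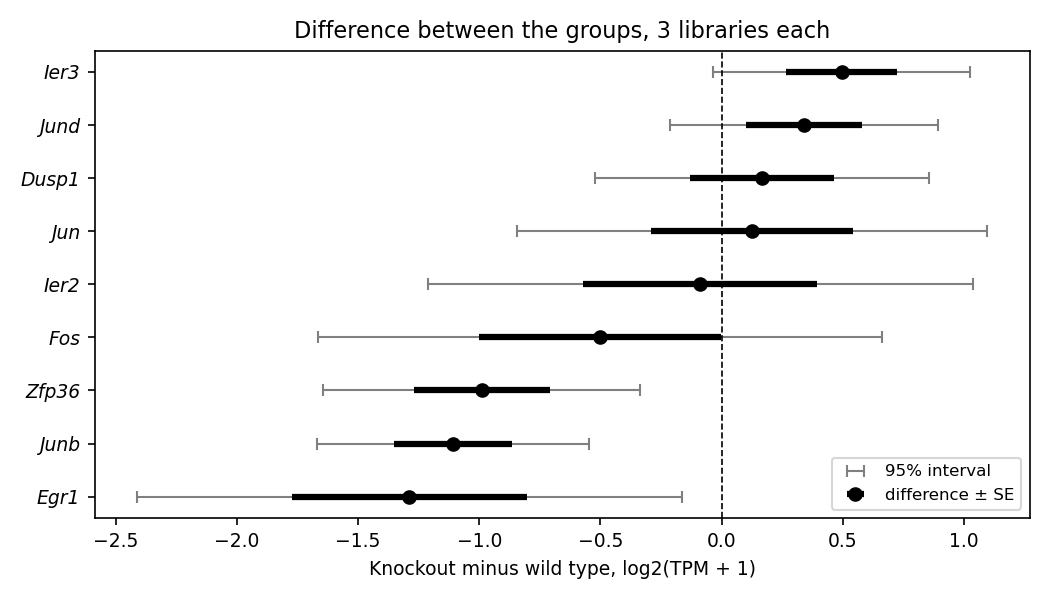
Difference between knockout and wild type on the log2(TPM + 1) scale for the 9 tested immediate early genes, from limma, with the SE (thick bar) and the 95% interval (thin bar), 3 libraries per group. The intervals of Egr1 (-2.41 to -0.16), Junb (-1.67 to -0.55) and Zfp36 (-1.64 to -0.34) lie below 0, without adjustment for the number of genes tested, and the other 6 include 0.

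The order of levels differed between the groups. In wild type, Zfp36 and Egr1 were the most abundant members, at means of 129 and 124 TPM, and did not differ beyond their spread. They were followed by Junb (52.2), Jund (39.4), Ier2 (37.9) and Jun (31.5), neighbours that differed by less than their SDs of 13.6 to 22.1 TPM. Below them came Dusp1 (20.4), Fos (7.92), Ier3 (4.07) and Fosb (0.176). In the knockout, Zfp36 (67.7 TPM) was followed by Jund (48.4), Egr1 (43.7), Jun (31.9), Ier2 (30.4), Dusp1 (23.3) and Junb (23.2). Ier3 (5.98), Fos (5.09) and Fosb (0.210) were again at the bottom. Of these neighbours, Jund and Egr1, Jun and Ier2, Dusp1 and Junb, and Ier3 and Fos differed by less than the SD of each gene. The place of Jund in both orders rests on its uncertain level.

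The members varied more between libraries of one group than most genes did. Their median within-group SD on the log2(TPM + 1) scale was 0.47, against 0.21 over all genes tested. All 9 tested members exceeded that median, from Ier3 (0.33, above 79.9% of genes) to Fos (0.82, above 98.4%). Egr1, Ier2 and Jun had SDs of 0.80, 0.80 and 0.68.

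Most members were lowest, and most were highest, in the same library of a group. Wild type replicate 2 was the lowest wild type library for 8 of the 10 members, Junb and Fosb being the exceptions, and it held the highest Junb level of all 6 libraries. Knockout replicate 2 was the lowest knockout library for 8 of 10, the exceptions being Jun and Jund. Knockout replicate 3 was the highest knockout library for 8 of 10, the exceptions being Fos and Ier3. Such counts were not made over all genes, and wild type replicate 2 also stood apart over all genes on the first principal component. Averaged over the 9 tested members, the deviation from the gene mean was 0.54, -0.47 and 0.40 in wild type replicates 1, 2 and 3 and -0.18, -0.47 and 0.18 in knockout replicates 1, 2 and 3 on the log2(TPM + 1) scale. The summed level of all 10 members was 542, 287 and 509 TPM in the wild type and 254, 227 and 358 TPM in the knockout. In wild type replicates 1 and 3, Zfp36 (139 and 143 TPM) and Egr1 (181 and 145 TPM) weighed most in that sum. Without wild type replicate 2, the groups did not overlap for 5 of 9 members, Fos, Junb, Egr1, Ier2 and Zfp36, all lower in the knockout. That library was the lowest of the wild type for Fos, Egr1, Ier2 and Zfp36, so leaving it out could only lower their log2 differences. In that setting 21.4% of all genes did not overlap in either direction, and 1055 of 14182 were lower. None of the 9 passed the limma adjusted threshold there either, and 4 had an unadjusted p under 0.05, all lower. Of all genes, 5.62% did in either direction, and 309 of 14182 were lower.

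**Figure D4:**
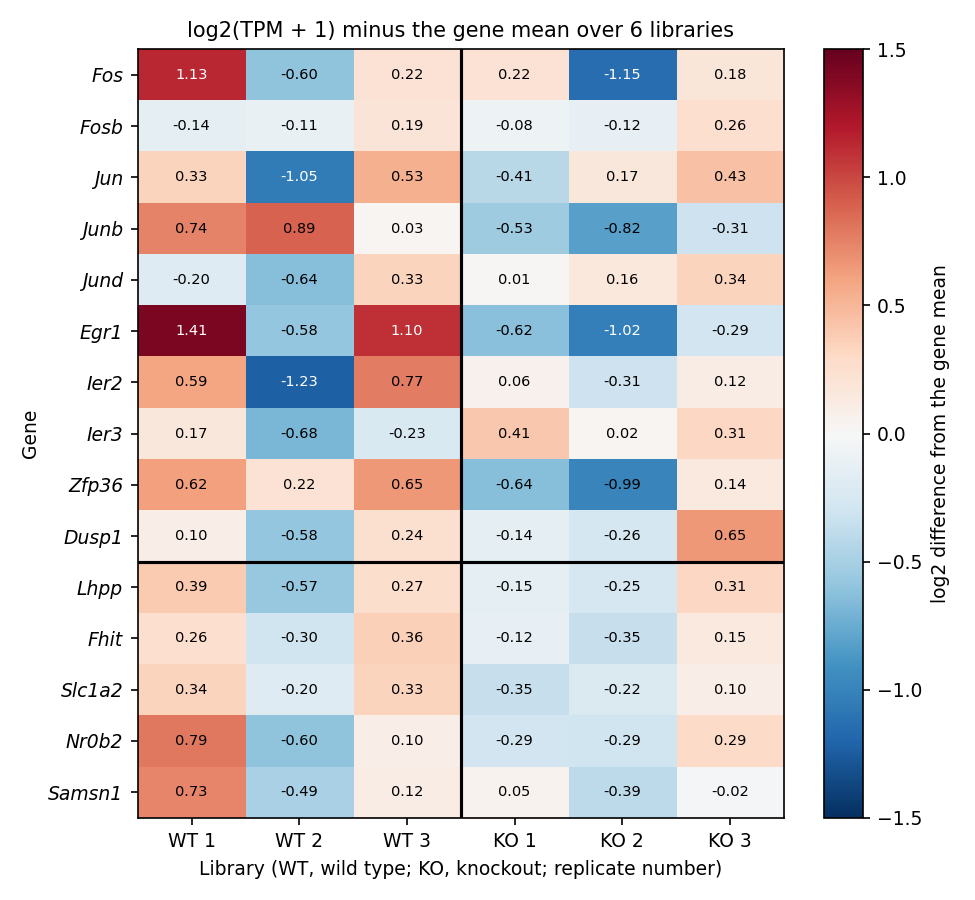
Heat map of log2(TPM + 1) minus the gene mean over 6 libraries (red, higher; blue, lower; value printed in each cell) for the 10 immediate early genes and, below the line, the 5 other genes most like their mean profile. WT 2 is blue for 8 members and red for Junb (0.89) and Zfp36 (0.22).

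Genes with a similar course over the 6 libraries were sought among 10863 named genes with a mean of at least 1 TPM, by the root mean square difference from the mean profile of the tested members on the log2(TPM + 1) scale. The nearest were the phosphatase gene Lhpp (0.14), Fhit (0.15), the glutamate transporter gene Slc1a2 (0.19), the bile acid-induced corepressor gene Nr0b2 (0.19) and Samsn1 (0.19). Lhpp, for instance, stood at 89.2, 45.4 and 82.0 TPM in the wild type and 61.3, 56.8 and 84.6 TPM in the knockout, low in the same library as most members. None of the 5 is among the early response genes listed for comparison.

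The wider early response did not pass over all genes in any listed group, and unadjusted calls went both ways. Of 35 tested other early response genes, 17 were higher and 18 lower (median log2 -0.0011), with 2 lower and 2 higher at a limma unadjusted p under 0.05 and an adjusted p of at least 0.522. Among all 14155 genes tested, 412 were lower and 725 higher at that unadjusted p. The acute-phase factor gene Cebpd stood at 8.14, 8.81 and 7.43 TPM in the wild type and 6.25, 3.75 and 3.04 TPM in the knockout, and the kinase gene Plk3 at 18.6, 18.5 and 20.6 against 9.09, 14.2 and 16.4 TPM. Both were lower in every knockout library. Plk2, a related kinase gene, was higher in each, at 5.22, 6.43 and 8.42 TPM against 4.28, 3.75 and 3.82 TPM. The transcriptional coregulator gene Ifrd1 had a log2 difference of 0.53 (SE 0.22). Socs3, the feedback inhibitor of IL-6 signalling, and Gadd45g, a stress-induced growth arrest gene, were chosen after their values were seen, because they shared with Junb its maximum in wild type replicate 2. Socs3 stood at 6.88, 22.8 and 2.54 TPM in the wild type and 4.78, 2.82 and 3.26 TPM in the knockout. Gadd45g stood at 11.9, 42.8 and 13.5 TPM against 12.6, 6.33 and 7.83 TPM.

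AP-1 partner genes were split, 4 higher and 6 lower of 10 tested, with 0 at a limma unadjusted p under 0.05 and 0 past the adjusted threshold. Atf3, a stress-induced partner of Jun, stood at 2.78, 0.698 and 2.76 TPM in the wild type and 3.11, 2.79 and 6.54 TPM in the knockout, all knockout libraries being higher by a narrow margin. The log2 differences of Mafk, Atf2 and Mafg were -0.40 (SE 0.23), -0.14 (SE 0.13) and -0.17 (SE 0.16).

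Among 23 kinases and factors that act on the promoters of the members, 13 were higher and 10 lower (median log2 0.02), with 2 at a limma unadjusted p under 0.05, both higher, and none past the adjusted threshold. That count is near the share over all genes tested, 8.03% in either direction. Rps6ka1, which encodes the ERK-activated kinase RSK1, stood at 7.07, 5.96 and 7.16 TPM in the wild type and 9.71, 11.4 and 10.3 TPM in the knockout. Mapk3, which encodes ERK1, stood at 29.3, 23.4 and 36.6 TPM against 43.5, 43.3 and 43.9 TPM. Neither overlapped between the groups, and their limma adjusted p-values were 0.522 and 0.536. The JNK2 gene Mapk9 had a log2 difference of 0.26 (SE 0.13). Egfr, a receptor upstream of ERK, stood at 21.3, 42.4 and 16.8 TPM in the wild type and 13.3, 14.6 and 16.9 TPM in the knockout, highest in wild type replicate 2. Srf and Creb1, named outside the rule, differed by 0.02 (SE 0.15) and 0.06 (SE 0.13) on the log2 scale.

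Other feedback genes of MAP kinase and EGR signalling were 8 higher and 6 lower of 14 tested, with 0 at a limma unadjusted p under 0.05 and 0 past the adjusted threshold. Dusp2, a nuclear MAP kinase phosphatase gene, stood at 1.68, 0.356 and 1.23 TPM in the wild type and 0.375, 0.488 and 0.379 TPM in the knockout, with wild type replicate 2 the lowest library. Dusp10, Dusp16 and the EGR corepressor gene Nab2 had log2 differences of 0.24 (SE 0.13), 0.40 (SE 0.23) and 0.25 (SE 0.21). Of 11 transcripts that tristetraprolin is known to destabilise, 5 were abundant enough to test, 2 higher and 3 lower in the knockout, with 0 at a limma unadjusted p under 0.05 and 0 past the adjusted threshold. The chemokine gene Cxcl1 stood at 31.6, 119 and 8.35 TPM in the wild type and 13.6, 4.73 and 10.5 TPM in the knockout, another maximum in wild type replicate 2. Il1b had a log2 difference of 0.51 (SE 0.39), Cxcl2 of -0.31 (SE 0.29) and Ccl3 of -0.30 (SE 0.50).

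Heat shock genes encode chaperones and their helpers, only some of them mainly induced by heat and other protein-damaging stress. Of 10 tested, 9 were higher in the knockout (median log2 0.24). At a limma unadjusted p under 0.05 were 3 of these, and none passed the adjusted threshold. Of all genes tested 8125 of 14155 were higher (median log2 0.04), 725 of them at an unadjusted p under 0.05. After median scaling, which removed most of that lean over all genes, 9 of the 10 were still higher, with a median of 0.21. Hsp90aa1 stood at 480, 303 and 336 TPM in the wild type and 560, 582 and 653 TPM in the knockout. Hspb1 stood at 99.2, 52.6 and 96.8 TPM against 218, 146 and 119.5 TPM. Hspa8 differed by 0.44 (SE 0.14) and Dnajb1 by 0.41 (SE 0.27) on the log2 scale. Dnajb1 stood at 29.3, 13.0 and 24.6 TPM in the wild type and 30.7, 27.6 and 27.0 TPM in the knockout. Its difference thus rested mostly on wild type replicate 2. That library also had the lowest sum over the heat shock genes, 3438 to 4222 TPM in the wild type and 4464 to 5217 TPM in the knockout. Hspa8 alone made up most of that sum, at 2441, 2041 and 2053 TPM in the wild type and 2993, 2673 and 3196 TPM in the knockout. The exception was Hspa1b, an inducible Hsp70 gene named after its value was seen, with a log2 difference of -0.55 (SE 0.71); its near-identical copy Hspa1a can share its reads, so both values are uncertain.

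**Figure D5:**
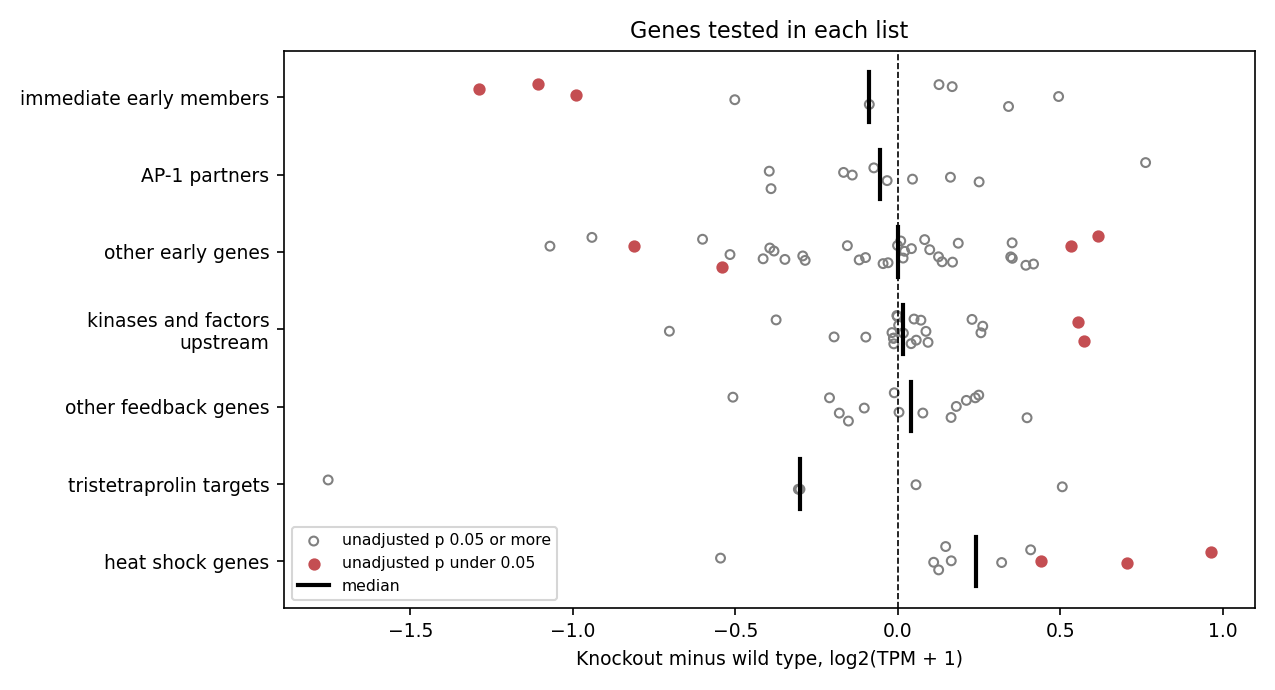
Difference between knockout and wild type on the log2(TPM + 1) scale for every tested gene of 7 lists (1 point per gene; filled red, limma unadjusted p under 0.05; vertical bar, median of the list). The filled points of the immediate early members lie between -1.29 and -0.99, and those of the heat shock genes lie above 0.

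Immediate early genes are transcribed in many cell types, and in whole liver fewer cells of a type and less RNA per cell cannot be told apart. Neutrophil markers summed to 20.9 to 50.1 TPM in the wild type and 15.8 to 20.6 TPM in the knockout, highest in wild type replicate 2, and all 4 tested of the 8 listed were lower. The defining neutrophil genes Ly6g and Mpo were listed at 0 in every library except wild type replicate 2, where they were at 0.104 and 0.0378 TPM. Elane had its highest level in wild type replicate 1 (0.320 TPM) and was at 0 in knockout replicates 2 and 3, and Cxcr2 lay between 0.158 and 0.437 TPM in all 6 libraries. At a limma unadjusted p under 0.05 were 3 of the 4 tested, all lower, where 2.91% of all genes tested passed lower. Endothelial markers summed to 130 to 173 TPM in the wild type and 181 to 212 TPM in the knockout, with all 10 higher, 6 of them at a limma unadjusted p under 0.05. Macrophage markers summed to 184 to 556 TPM against 396 to 952 TPM, again with all 10 higher, 3 of them at a limma unadjusted p under 0.05. Of all 14155 genes tested, 725 were higher at that threshold. Wild type replicate 2 had the lowest sum of endothelial, macrophage, lymphocyte and hepatocyte markers. Among hepatocyte markers, it was the lowest library for Trf, Ttr, Cyp2e1 and Hpd and the highest for Apoa1. Lymphocyte markers (5 of 6 tested higher), stellate cell markers (10 of 10), cholangiocyte markers (5 of 5), red blood cell transcripts (5 of 5), adipocyte markers (1 of 2) and hepatocyte markers (6 of 10) were also compared, and of all genes tested 8125 of 14155 were higher. In these lists, 2 lymphocyte and 2 stellate cell markers had a limma unadjusted p under 0.05, all higher. The lowest limma adjusted p of any marker was 0.345, for the stellate cell marker Lum. Adipocyte markers other than Cidec were nearly confined to knockout replicate 1, where Cfd and Adipoq were at 5.94 and 1.99 TPM, against at most 0.105 TPM and 0 elsewhere. None of these marker genes passed the limma adjusted threshold, and the part of cell composition in the levels of Junb, Zfp36 and Egr1 was not tested.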

How the data were processed

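Per the labels' protocols, TRIzol-extracted liver RNA went through reverse transcription and amplification before Illumina sequencing. The submitters' processing notes name FastQC, Trimmomatic and build mm10; the sources used here give no aligner, counting tool, annotation or strandedness. The authors' deposited columns carry the name TPM, per the file headers, yet hold log2 TPM: some values are negative, and back-transformed they total 983800 to 1018120 in a library. All 6 deposited columns share 1 maximum (16.59) and nearly equal medians, as quantile normalization leaves them, so a shift of all genes cannot be seen. A blank was taken as 0 TPM. Genes with a mean of at least 0.5 TPM were tested on log2(TPM + 1), which understates changes of low genes, with limma 3.58.1 in R 4.3.3 (two-sided, eBayes with trend, no term other than group, 4 residual and 3.65 prior degrees of freedom) and Benjamini-Hochberg adjustment over 14155 genes. The fit was also run on simulated data whose noise was independent between genes and libraries. Such data hold no shared library deviations like those seen here. Exact permutation tests used all 20 splits. TPM keeps no depth, so no counting interval is given.

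The members and gene lists were chosen with earlier results of these data known, so no test over the list was made. Named genes are the members, Fabp4, up to 4 genes of smallest p in each related list, and the 5 nearest profiles; Socs3, Gadd45g, Srf, Creb1, Hspa1a, Hspa1b and single cell markers were named outside that rule after their values were seen. One listed symbol, Tf, was matched as Trf through the GRCm38.p6 RefSeq gene table. The alternatives were other pseudocounts (0.1, 5), filters and scalings, limma without trend, the replicate number as a block, and each library left out. The setting without both wild type replicate 2 and knockout replicate 1 was chosen after seeing the data.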

Additional observations from a re-analysis of the deposited data

How the results depend on the processing

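No member passed the adjusted threshold under any of the 15 alternatives. Junb, Zfp36 and Egr1 were lower in all 15, with log2 differences from -1.37 to -0.94, -1.31 to -0.74 and -1.91 to -0.90 and limma adjusted p-values from 0.207 to 0.989, 0.330 to 0.834 and 0.460 to 0.989. These genes were singled out by their low knockout levels in the same libraries. For Junb and Zfp36, whose groups did not overlap, leaving out libraries could not turn the sign. The count of members with an unadjusted p under 0.05 ranged from 2 to 4. Without single libraries, 2 to 5 members did not overlap between groups, against 19.6% to 27.4% of all genes, the 5 without wild type replicate 2 (21.4%); without that library and knockout replicate 1 it was 5, against 37.7% of all genes. Signs turned for Ier2 without replicate 1 (0.19) or 3 (0.27) of the wild type or replicate 2 of the knockout (0.04). They turned for Jun without wild type replicate 2 (-0.37), knockout replicate 3 (-0.06), or wild type replicate 2 and knockout replicate 1 (-0.13), and for Dusp1 without wild type replicate 2 (-0.08) or knockout replicate 3 (-0.12). Over the fits without single libraries, Jun ranged from -0.37 to 0.42, Ier2 from -0.72 to 0.27, Dusp1 from -0.12 to 0.34, Fos from -0.93 to -0.05, Jund from 0.10 to 0.59 and Ier3 from 0.28 to 0.70. Without knockout replicate 1, Jun, Fos and Dusp1 differed by 0.37, -0.74 and 0.28, against 0.13, -0.50 and 0.17 with all libraries. The cause was not tested. Without a filter, Fosb could be tested and differed by 0.04 (SE 0.14).

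Over all genes, 1 gene passed; 0 did at a pseudocount of 5, without a filter or with the replicate block, 0 to 6 did without single libraries, and 3 without both wild type replicate 2 and knockout replicate 1. At an unadjusted p under 0.05, 725 genes were higher and 412 lower; median scaling gave 565 and 530, quantile normalization 570 and 537. The replicate numbers share no stated litter. Deviations of same-numbered libraries correlated across genes at -0.261, -0.265 and -0.0494. With the replicate block 4 members, against 3, had an unadjusted p under 0.05 (5.76% of all genes). The added one was Ier3, higher (p 0.0316 from limma). The block lowered the SE of every tested member but Junb, for Fos from 0.50 to 0.21 and for Egr1 from 0.48 to 0.30. No member passed the adjusted threshold with it. Precision is limited by 3 libraries per group.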
